A study of Rattus norvegicus with 17 samples.

Results

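The mitochondrial genome codes for a small set of membrane proteins of the respiratory chain, and 10 of these genes were followed here across the spinal cords of 17 rats. They were taken as 10 given identifiers among the 32494 genes of the counts table, and comprise Nd1, Nd2, Nd4l, Nd4, Nd5 and Nd6 of complex I, Cytb of complex III, Co1 of complex IV, and Atp6 and Atp8 of complex V. Of the 10, 9 were among the 15460 genes that passed the filter on low counts, and Nd4 was not. The levels of these genes in groups A to E were already known when the set was put together. Differences between groups are therefore given as values with their errors, as a description, and no test is read from them.

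The respiratory chain passes electrons from NADH through complex I, ubiquinone, complex III and cytochrome c to oxygen at complex IV, and complex V uses the resulting proton gradient to make ATP. Mitochondrial DNA is transcribed on both strands into long precursors, which are cut at transfer RNAs into the separate messenger, ribosomal and transfer RNAs. Nd6 is the exception among the 10 in being encoded on the light strand, and Nd4l with Nd4, and Atp8 with Atp6, share messenger RNAs in which the reading frames overlap. Spinal cord tissue, with its long axons and many synapses, depends heavily on oxidative phosphorylation.

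The rats were female Sprague-Dawley, 10 to 12 weeks old, and all had a stimulating electrode placed in the nucleus raphe magnus (NRM), a serotonergic nucleus of the lower brainstem, 3 days after injury or sham injury. Group A (n = 4) had sham injury in place of spinal cord injury (SCI) and no stimulation, group B (n = 3) had a moderate thoracic contusion without stimulation, and group C (n = 3) had the contusion followed by 2 h of stimulation. Group D (n = 2) was treated like group C but also received pimozide, an antagonist of serotonin 5-HT7 and dopamine D2 receptors, at 1 mg/kg before stimulation, and group E (n = 5) had sham injury and stimulation. All rats had been anesthetized, and the methods describe a laminectomy without contusion for some control animals. For group E the treatment label says unstimulated, whereas the group letter in the title and the design text say stimulated; the letter was followed. Each contrast name starts with what differs between its groups and puts in brackets what they share. Thus ±st(0) sets stimulated (E) against unstimulated (A) intact rats.

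Each rat gave 1 library, made from tissue blocks of the cervical, thoracic and lumbar levels and their pia-arachnoid together, so a level averages over the lesion and the cord around it. Fewer cells of a type and less RNA per cell cannot be told apart in such a sample. Libraries held 9852873 to 14137717 counts on genes, and levels are given as counts per 1000000 counts (CPM) after scaling by the trimmed mean of M-values (TMM), with factors of 0.966 to 1.05. At these depths 1 CPM corresponded to 9.6 to 14.3 counts. The lowest count of Nd4l in any library was 115, a counting error of 9.33%, and that of Atp8 was 593, an error of 4.11%, so that the spread between rats, and not counting, set the precision. Markers of neurons and glia could not be checked, because none of their symbols could be matched to an identifier.

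Rat 82 of group A stood apart from the other 3 rats of its group in these genes. It was the lowest of group A in 7 of 8 members other than Co1, and the contrasts, sums and ratios that involve group A are given below with it and, for each gene or as a range over the genes, without it. Within-group ranks were similarly uneven elsewhere. Rat 91 was the lowest of group B in 8 of these 8 members, rat 89 the lowest of group C in 7, and rat 69 the highest of group E in 7. Rat 70 was the highest of group A in 6, rat 94 of group B in 6 and rat 93 of group C in 7. In group D rat 75 was the higher in 7, and rat 85 was the lowest of group E in 6.

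Together the 10 genes took up a median of 2.54% of all counts in group A (range 2.44 to 2.64%), 2.54% in group B (2.2 to 2.73%) and 2.28% in group C (2.17 to 2.52%). Without rat 82 the median of group A was 2.55%. The median was 1.98% in group E (1.93 to 2.22%), and the shares of the 2 rats of group D were 1.52% and 1.67%. Most of these counts were on Co1, with 1.18 to 2.07% of all counts. Without Co1, the summed level was 6442 ± 1890 CPM (SD, n = 4) in group A, 6820 ± 1621 CPM (n = 3) in group B, 5704 ± 1402 CPM (n = 3) in group C and 3294 ± 564 CPM (n = 5) in group E, and the rats of group D stood at 3398 and 3283 CPM. Rat 82, at 3718 CPM, lay within the range of group E (2719 to 4214 CPM), and the other 3 rats of group A lay between 6884 and 8083 CPM, with a mean of 7350 ± 643 CPM (n = 3). The lowest rat of group C, rat 89, had 4172 CPM, just under the highest of group E.

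**Figure D1:**
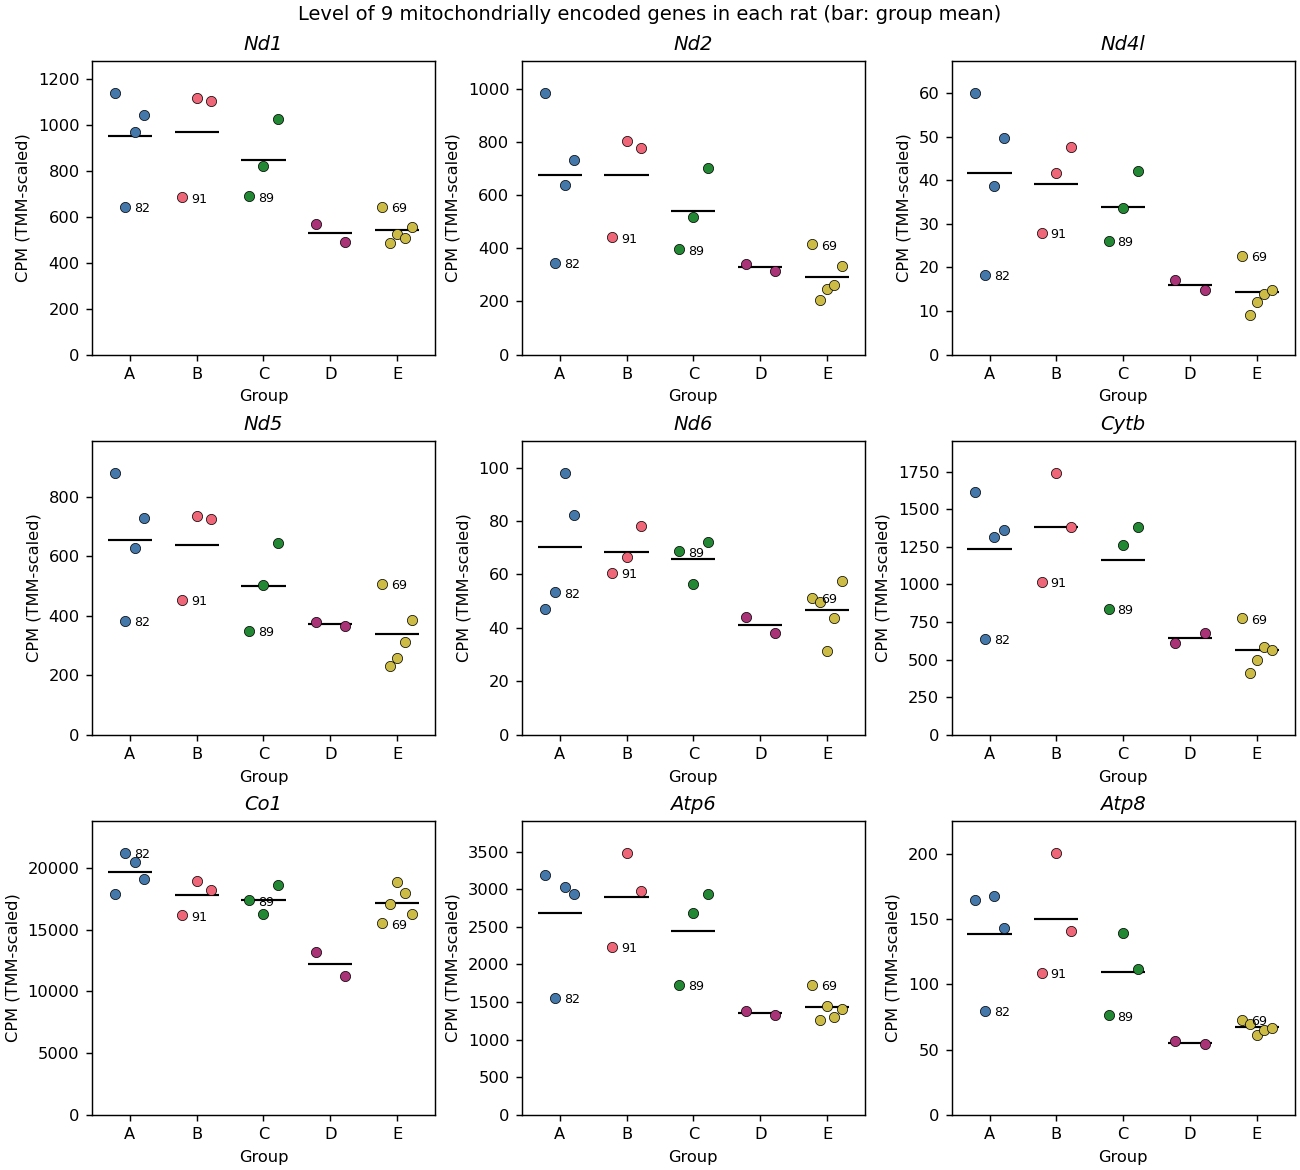
Level of each of 9 mitochondrially encoded genes in each rat, in CPM after TMM scaling (vertical axes, each starting at 0), by group A to E (horizontal axes), with 1 point per rat and a bar at the group mean. The means of groups D and E lie below those of groups A, B and C in each gene, but for Co1 the mean of group E (17129 CPM) is close to that of group C (17399 CPM). Rats 82, 91, 89 and 69 are marked by their numbers.

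Complex I, the NADH dehydrogenase through which most electrons enter the chain, has its mitochondrially encoded subunits in the membrane arm. Nd1 (ENSRNOG00000030644), the subunit at the junction with the ubiquinone site, was at 1140, 644, 970 and 1044 CPM in rats 70, 82, 83 and 84 of group A and at 685, 1117 and 1104 CPM in rats 91, 94 and 95 of group B. It was at 689, 822 and 1024 CPM in rats 89, 90 and 93 of group C, at 570 and 492 CPM in rats 75 and 76 of group D, and at 644, 485, 525, 507 and 554 CPM in rats 69, 85, 86, 87 and 88 of group E. All rats of groups A, B and C were above all rats of D and E, but rats 82 and 69 were separated by less than 1 CPM.

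Nd2 (ENSRNOG00000031033), a proton-pumping subunit, was at 986, 346, 638 and 732 CPM in group A, in the same order of rats, at 442, 803 and 779 CPM in B, and at 397, 519 and 701 CPM in C. In group D it was at 342 and 316 CPM, and in group E at 415, 204, 248, 261 and 333 CPM. Rats 82 and 89 lay below rat 69 of group E, so that both A and C overlapped with E.

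Nd4l (ENSRNOG00000031053), a small subunit next to the ubiquinone site, showed the widest range of the 9 genes, 6.69-fold between the highest and the lowest rat. Its levels were 60.1, 18.3, 38.6 and 49.7 CPM in group A, 27.9, 41.6 and 47.7 CPM in B, and 26.1, 33.6 and 42 CPM in C. In group D they were 17 and 14.9 CPM, and in group E 22.6, 8.98, 12, 13.8 and 14.8 CPM. Only rat 82 of groups A, B and C reached into the range of groups D and E.

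Nd5 (ENSRNOG00000029971), a large proton-pumping subunit at the far end of the membrane arm, was at 881, 383, 627 and 727 CPM in group A, 454, 736 and 726 CPM in B, and 349, 504 and 644 CPM in C. It was at 379 and 365 CPM in group D and at 508, 230, 258, 310 and 386 CPM in group E. Here the overlap was wider, with rats 82, 91, 89 and 90 all below rat 69 of group E.

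Nd6 (ENSRNOG00000029042), the subunit encoded on the other strand, was at 46.9, 53.3, 98.1 and 82.2 CPM in group A, 60.7, 66.4 and 78.2 CPM in B, and 68.6, 56.5 and 72.2 CPM in C. It was at 44.1 and 37.9 CPM in D and at 51.3, 49.7, 31.3, 43.7 and 57.6 CPM in E. Unlike in the other complex I genes, the lowest rat of group A was rat 70 and not rat 82. Which strand column of the aligner's counts was deposited is not stated, so its reads could not be told apart from antisense reads of the opposite strand.

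Nd4 (ENSRNOG00000029707), another proton-pumping subunit, had 11 counts over all 17 libraries, with none in 11 libraries and at most 3 in any. Nd4l, its partner in the same messenger RNA, had 115 to 577 counts per library. Nothing can be said of Nd4 across the groups at these counts. A read in the overlap of the 2 genes is counted for neither by the authors' counting function, and the part of this in the low counts of Nd4 was not tested.

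Complex III, the cytochrome bc1 complex, has cytochrome b as its only mitochondrially encoded subunit. Cytb (ENSRNOG00000031766) was at 1615, 640, 1314 and 1363 CPM in group A, 1018, 1745 and 1381 CPM in B, and 837, 1264 and 1386 CPM in C. It was at 613 and 674 CPM in group D and at 776, 411, 495, 582 and 561 CPM in group E. Again rat 82 was the only rat of groups A, B and C below the highest rat of D and E.

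Complex IV, cytochrome c oxidase, reduces oxygen to water at the active site held by its subunit 1. Co1 (ENSRNOG00000034234) was at 17869, 21236, 20508 and 19115 CPM in group A, 16171, 18906 and 18214 CPM in B, and 17375, 16234 and 18587 CPM in C. It was at 13170 and 11272 CPM in group D and at 15495, 17081, 18834, 17974 and 16259 CPM in group E. Co1 differed from the other genes in 2 respects: rat 82 was the highest of group A and not among the lowest, and group E overlapped with groups A, B and C while group D lay below all other rats. It also varied least between rats of a group, with an SD of 0.115 on the log2 scale, against 0.29 for Nd1, 0.516 for Nd4l and a median of 0.193 over all genes tested.

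Complex V, the ATP synthase, has 2 mitochondrially encoded subunits in its membrane part. Atp6 (ENSRNOG00000031979), which forms part of the proton channel, was at 3190, 1552, 3030 and 2941 CPM in group A, 2235, 3485 and 2977 CPM in B, and 1730, 2678 and 2940 CPM in C. It was at 1376 and 1329 CPM in group D and at 1724, 1261, 1452, 1296 and 1403 CPM in group E. Rat 82 was again alone among groups A, B and C in lying below the highest rat of D and E, and rat 89 exceeded that rat by a small margin.

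Atp8 (ENSRNOG00000033299), a short subunit of the stator, was at 165, 79.8, 168 and 143 CPM in group A, 109, 201 and 141 CPM in B, and 76.4, 139 and 112 CPM in C. It was at 56.5 and 53.9 CPM in group D and at 73, 69.7, 61.4, 64.9 and 66.6 CPM in group E. Each rat of groups A, B and C lay above each rat of D and E. Ordered by group means, A, B and C took the first 3 places in all 9 genes, and neighbours among those 3 overlapped in all 9. The third place and the fourth were apart in Nd1, Nd2, Nd4l, Cytb, Atp6 and Atp8, and overlapped in Nd5, Nd6 and Co1. Groups D and E overlapped each other in all but Co1 and Atp8, in which D was lower.

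Contrast ±st(0), which asks what stimulation changed in intact rats, gave lower mean levels in group E for all 9 genes, with a median log2(FC) of -0.95 (range -1.53 to -0.2), against 0.01 over all genes tested. The log2(FC) was -1.53 ± 0.292 (SE) for Nd4l, with a mean level of 14.4 CPM in E and 41.7 CPM in A, a 2.88-fold difference. It was -1.21 ± 0.265 for Nd2, -1.13 ± 0.235 for Cytb and -1.05 ± 0.206 for Atp8. These genes, from complexes I, III and V, were at the far end of the range. Intermediate values were -0.95 ± 0.251 for Nd5, -0.91 ± 0.193 for Atp6 and -0.81 ± 0.167 for Nd1. The difference was -0.59 ± 0.195 for Nd6 and -0.2 ± 0.0891 for Co1, which thus differed between E and A by 1.15-fold.

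No member was called in ±st(0) by edgeR's quasi-likelihood test at an FDR under 0.05, and the background was 0% of the 15460 genes tested. At an unadjusted p under 0.05, 9 of 9 were lower (background 4.81%), DESeq2 called 6 as lower at an FDR under 0.05 (background 0.234%), and edgeR's exact test on both groups alone called 7 (background 0.105%). The exact test was run with scaling by total counts and without the filter, over 22893 genes, so that it differed from the quasi-likelihood test in more than the test itself. With an absolute log2(FC) above 1 as well, DESeq2 and the exact test each called 4 of 9 (backgrounds 0.0366% and 0.0306%). Groups A and E did not overlap in Nd1 and Atp8, 2 of 9 genes, against 1.17% of all genes lower without overlap. Because the genes were chosen with these levels known, nothing is read from such counts, here or in the other contrasts.

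Without rat 82, the same difference was larger in 8 of the 9 genes. Rat 82 was singled out by its low levels in these same genes, so a larger difference followed from that choice. The log2(FC) became -1.78 ± 0.241 for Nd4l, -1.43 ± 0.237 for Nd2, -1.34 ± 0.198 for Cytb and -1.24 ± 0.173 for Atp8, and was -0.16 ± 0.0985 for Co1. The quasi-likelihood test then called 7 of 9 genes lower (background 0.24%), all but Co1 and Nd6, 6 of them with an absolute log2(FC) above 1 (background 0.0518%). In the same 7 genes the groups were without overlap (background 4.64%), as Nd1 and Atp8 already were with rat 82 included. The change in count from 0 to 7 therefore rested on this 1 library of the 4 in group A. Rat 70 was the highest of group A in 6 of 8 members other than Co1. Without rat 70 instead, the median log2(FC) was -0.81 and Nd4l was at -1.3.

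**Figure D2:**
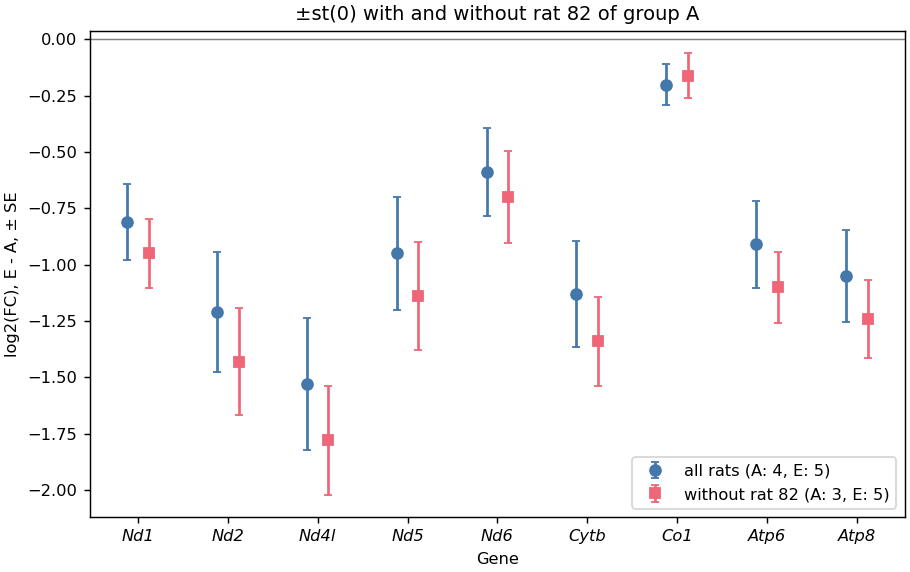
Difference between stimulated and unstimulated intact rats for each gene, as log2(FC) of group E minus group A ± SE (vertical axis), with all rats (circles) and without rat 82 of group A (squares). The squares lie below the circles in all genes but Co1, and Nd4l reaches -1.78.

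The contrast ±SCI(st) asked for the difference that injury makes in stimulated rats, and its direction was the opposite. The 9 genes had a median log2(FC) of 0.7 (range 0.02 to 1.24) for group C over group E, against -0.02 over all genes tested. Nd4l was at 1.24 ± 0.313 (SE), with means of 33.9 CPM in C and 14.4 CPM in E, and Cytb at 1.04 ± 0.251, with 1162 and 565 CPM. These were the largest differences among the 9. The values were 0.88 ± 0.284 for Nd2, 0.78 ± 0.207 for Atp6, 0.7 ± 0.222 for Atp8 and 0.64 ± 0.18 for Nd1. They were 0.56 ± 0.27 for Nd5, 0.5 ± 0.211 for Nd6 and 0.02 ± 0.0972 for Co1.

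By the quasi-likelihood test at an FDR under 0.05, 6 of 9 were called higher in ±SCI(st), against 17.4% of all genes tested; these were Nd1, Nd2, Nd4l, Cytb, Atp6 and Atp8. With an absolute log2(FC) above 1 as well, Nd4l and Cytb were called, against 7.34% higher among all genes, and this number fell to 1 without rat 90 or 93 of group C or rat 85 or 86 of group E. Groups C and E did not overlap in 5 of 9 genes (background 15.2% higher): Nd1, Nd4l, Cytb, Atp6 and Atp8. The contrast shares group E with ±st(0), so low levels in E enter both, with opposite sign.

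Contrast ±SCI(0), injury without stimulation, gave values near 0, with a median log2(FC) of 0 (range -0.15 to 0.16), against -0.02 over all genes. Cytb was at 0.16 ± 0.267, Atp6 at 0.11 ± 0.22, Atp8 at 0.11 ± 0.232, Nd4l at -0.09 ± 0.321 and Co1 at -0.15 ± 0.102. Groups A and B overlapped in all 9. No member was called in either direction (background 12.4%), and none had an unadjusted p under 0.05 (background 28.3%). Without rat 82 the median was -0.12 (range -0.34 to -0.05) and all 9 values were below 0, with Cytb at -0.05 ± 0.225, Atp6 at -0.08 ± 0.18, Atp8 at -0.08 ± 0.196, Nd4l at -0.34 ± 0.267 and Co1 at -0.11 ± 0.111. The sign of Nd1, Cytb, Atp6 and Atp8 in this contrast thus turned with 1 library. Other single rats turned signs too, with Nd4l at 0.14 without rat 70, Nd5 at 0.16 without rat 91 and Nd6 at 0.17 without rat 83.

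Injury and stimulation together, ±st/SCI(0), gave a median log2(FC) of -0.18 (range -0.39 to -0.08) for group C against group A. Nd5 was at -0.39 ± 0.288, Atp8 at -0.34 ± 0.235 and Nd2 at -0.33 ± 0.303, and Cytb at -0.08 ± 0.268. The groups overlapped in all 9 genes, none was called (background 21.9%), and none had an unadjusted p under 0.05 (background 37.1%). Without rat 82 the median was -0.32 (range -0.58 to -0.14), with Nd5 at -0.58 ± 0.273, Atp8 at -0.54 ± 0.197, Nd2 at -0.54 ± 0.271 and Cytb at -0.3 ± 0.226. Leaving out some other rats moved values the other way. Without rat 70 the median was -0.09, without rat 89 Cytb was at 0.1 and Atp6 at 0.07, and without rat 83 Nd6 was at 0.12.

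In injured rats, ±st(SCI), stimulation gave a median log2(FC) of -0.24 (range -0.46 to -0.03), against 0 over all genes. Atp8 was at -0.46 ± 0.249, Nd5 at -0.35 ± 0.306, Nd2 at -0.32 ± 0.322, Nd6 at -0.06 ± 0.237 and Co1 at -0.03 ± 0.109. The median was -0.4 without rat 91 and -0.07 without rat 89. Nd6 turned to 0.05 without rat 95, and Co1 to 0.02 without rat 94. Groups B and C overlapped in all 9 genes, and no member was called by the quasi-likelihood test (background 0%) or had an unadjusted p under 0.05 (background 3.08%). DESeq2 and the exact test called none either.

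Whether the stimulation contrast differed between injured and intact rats was given by the interaction (C - B) - (E - A), the log2(FC) in ±st(SCI) minus that in ±st(0). Its median over the 9 genes was 0.61 (range 0.17 to 1.33), against 0 over all genes, and 0.78 (range 0.13 to 1.58) without rat 82. Nd4l was at 1.33 ± 0.452, Nd2 at 0.88 ± 0.417, Cytb at 0.88 ± 0.371, Atp6 at 0.67 ± 0.305 and Nd1 at 0.61 ± 0.265, and Co1 at 0.17 ± 0.141. The quasi-likelihood test called no gene of the 15460 for the interaction at an FDR under 0.05, and 5 of the 9 were higher at an unadjusted p under 0.05 (background 2.34%). That number was 7 without rat 82, and 1 to 3 without rat 70, 83 or 84 of group A, 91 or 95 of B, 90 or 93 of C, or 85, 86 or 87 of E. Groups A and E are those of ±st(0), so the 2 sets of values are not independent.

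Pimozide in stimulated, injured rats, ±pim(st/SCI), gave lower mean levels in group D than in group C for all 9 genes, with a median log2(FC) of -0.71 (range -1.09 to -0.43), against -0.02 over all genes. Nd4l was at -1.09 ± 0.408, Atp8 at -0.99 ± 0.291, Atp6 at -0.86 ± 0.27 and Cytb at -0.85 ± 0.329. Co1 was at -0.51 ± 0.123, with 12221 CPM in D and 17399 CPM in C and no overlap between the groups. In ±st(0) Co1 was at -0.2, with overlap, and whether Co1 differed between these contrasts was not tested. Nd5 had the smallest difference, -0.43 ± 0.346.

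Groups D and C did not overlap in 8 of 9 genes, all but Nd5, against 9.23% of all genes lower without overlap. The quasi-likelihood test called 0 members (background 0.00647% lower), 7 were lower at an unadjusted p under 0.05 (background 4.66%; 4 without rat 93 of group C or rat 76 of group D), DESeq2 called Co1 (background 0.257%) and the exact test Nd4l (background 0.137%, and 0.128% with an absolute log2(FC) above 1). Group D held 2 rats, both with numbers from 69 to 76, whereas all rats of group C were numbered from 89 to 93. No value could be had within a run of numbers, and with a term for the 2 runs the median was -1.2. Only groups A and E held rats of both runs, with rats 70 and 69 alone in the lower run. They were the highest of their groups in 6 and 7 of 8 members other than Co1. The term, and so the shift to -1.2, rested on rats 70 and 69.

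**Figure D3:**
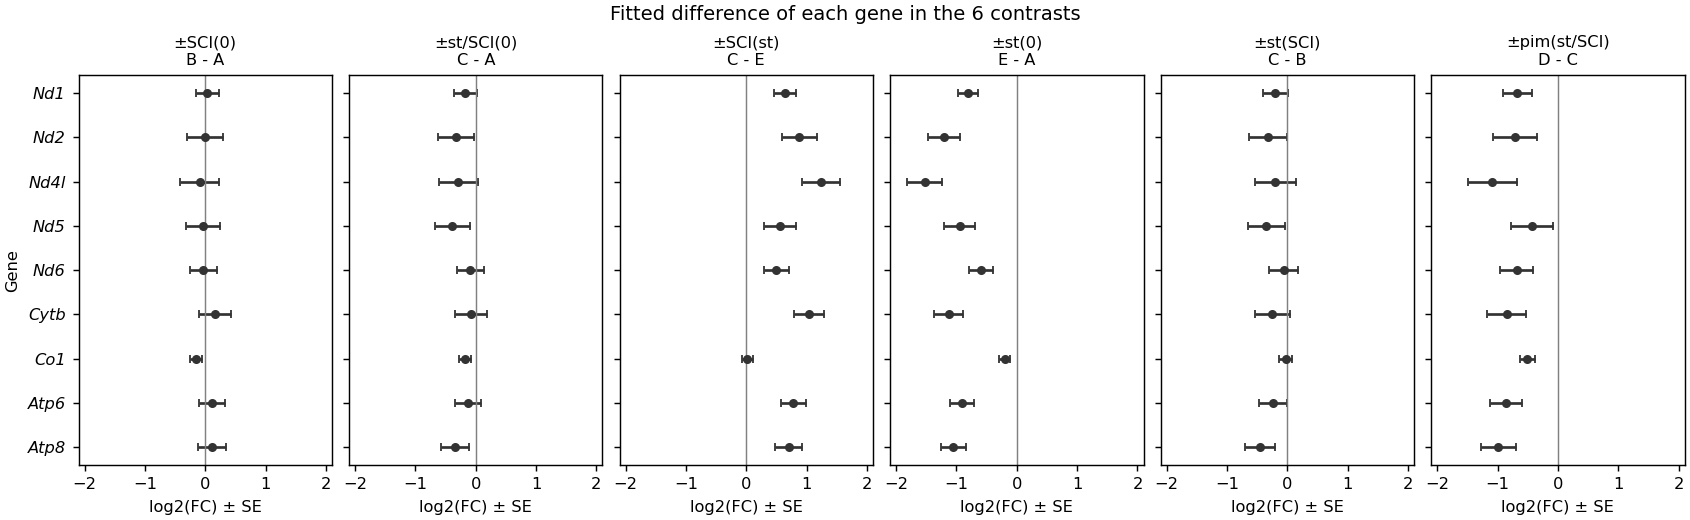
Fitted log2(FC) ± SE (horizontal axes) of 9 genes (vertical axis) in the 6 contrasts, with the groups compared above each panel. Values lie around 0 in ±SCI(0), to the left of 0 in ±st(0) and ±pim(st/SCI), and to the right of 0 in ±SCI(st), where Co1 is nearest to 0, at 0.02.

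Ratios between genes within a library do not depend on how the library is scaled. Nd4l amounted to 2.18 ± 1.07 counts per 1000 counts of Co1 (SD, n = 4) in group A, 2.18 ± 0.447 in B, 1.94 ± 0.396 in C and 0.86 ± 0.365 in E, with 1.29 and 1.32 in the rats of group D. Cytb amounted to 64 ± 25.1 per 1000 counts of Co1 in A, 77 ± 14.7 in B, 66.9 ± 16.3 in C and 33.5 ± 10.2 in E. The ratios of both genes to Co1 were thus lowest in group E, and group D lay between E and the other groups in mean. In Atp6 the ratio was 138 ± 45.5 in A, 162 ± 23.1 in B, 141 ± 36 in C, 84.1 ± 16.1 in E, and 105 and 118 in the rats of D. Rat 82 had 0.861 counts of Nd4l, 30.2 of Cytb and 73.1 of Atp6 per 1000 counts of Co1, the lowest of group A in all 3. Without it the means of group A were 2.62 ± 0.74 for Nd4l, 75.2 ± 13.6 for Cytb and 160 ± 16.3 for Atp6 (n = 3).

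Some pairs of genes kept a nearly fixed ratio in all 17 rats. The SD of the log2 ratio was 0.141 for Nd1 to Atp6, whose count ratio spanned 1.35-fold, 0.155 for Nd2 to Nd5, 0.159 for Nd2 to Cytb and 0.175 for Atp6 to Atp8. At the other end it was 0.775 for Co1 to Nd4l, with a 6.4-fold span, 0.637 for Nd2 to Co1 and 0.629 for Co1 to Cytb. Nd6, from the other strand, was closer to Nd1 (0.34) and Co1 (0.37) than to Nd4l (0.62). Atp8 and Atp6, which share a messenger RNA, had 38.2 to 57.6 counts of Atp8 per 1000 of Atp6 over the 17 rats. The mean was 51.8 ± 2.74 (SD, n = 4) in group A, 51.2 ± 5.58 in B, 44.8 ± 6.94 in C and 47.5 ± 5.51 in E, with 41.1 and 40.5 in D. Rat 82, at 51.4, was close to the mean of the other 3 rats of its group, 51.9 ± 3.33, although both genes were low in it.

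**Figure D4:**
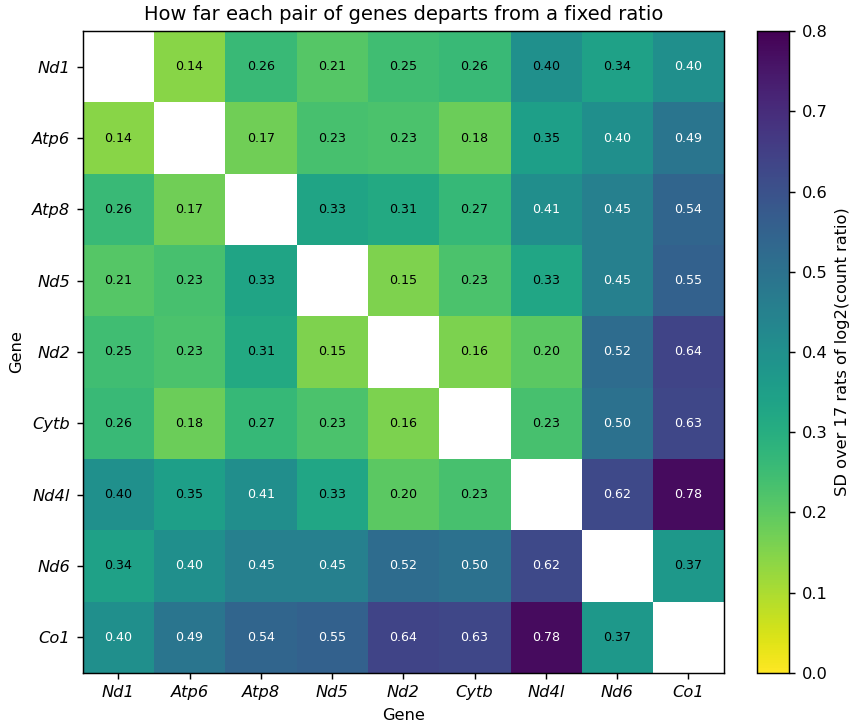
SD over 17 rats of the log2 count ratio of each pair of 9 genes (colour and printed value), with the genes on both axes. Low values, down to 0.14 for Nd1 with Atp6, mark pairs near a fixed ratio, and the row and column of Co1 hold the highest, up to 0.78 with Nd4l.

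Small RNAs mostly ran opposite to the mitochondrially encoded genes. A mitochondrial transfer RNA, AY172581.15 (ENSRNOG00000032274), the only other gene of mitochondrial DNA that could be matched, was at 4.76 to 24.2 CPM in rat 82, both rats of group D and all 5 of group E, and at 1.04 to 3.08 CPM in the other 9 rats. Its log2(FC) was 1.61 ± 0.483 in ±st(0), 3.08 ± 0.683 in ±pim(st/SCI) and -2.96 ± 0.612 in ±SCI(st), where its FDR by the quasi-likelihood test was 0.0021. In these 3 contrasts its direction was the opposite of that of the 9 genes. In ±st/SCI(0) it was at -1.35 ± 0.658 and in ±st(SCI) at -0.86 ± 0.721, lower without overlap between groups in both, where the medians of the 9 genes were also below 0, and in ±SCI(0) it was at -0.49 ± 0.607. Without rat 82, whose 6.2 CPM compared with 2.28 ± 0.251 CPM in the other 3 rats of group A, it was at 2.15 ± 0.532 in ±st(0), -0.81 ± 0.677 in ±st/SCI(0) and 0.06 ± 0.631 in ±SCI(0). The transfer RNA is among the genes that the study named from these rats, and its counts were few, 12 in the lowest library.

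The same 8 libraries were set apart by 33 small RNAs named in the study's supplement as small nuclear, small nucleolar or miscellaneous RNAs. Their summed level was 1965 to 5004 CPM in those 8 libraries and 374 to 622 CPM in the other 9. The study had picked these RNAs from the same rats, so they are not independent evidence of a direction. In the 8 libraries the summed level of the 8 members other than Co1 was 2719 to 4214 CPM, and in the other 9 it was 4172 to 8194 CPM. Rat 82 of group A was thus with groups D and E on all 3 measures, and whether a difference in preparation or a mistaken label sets its library apart was not tested. Rats 89 and 91, the lowest of groups C and B in the mitochondrially encoded genes, had low small RNAs, at 435 and 374 CPM. The part of the small RNAs in the differences between groups was not tested.

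**Figure D5:**
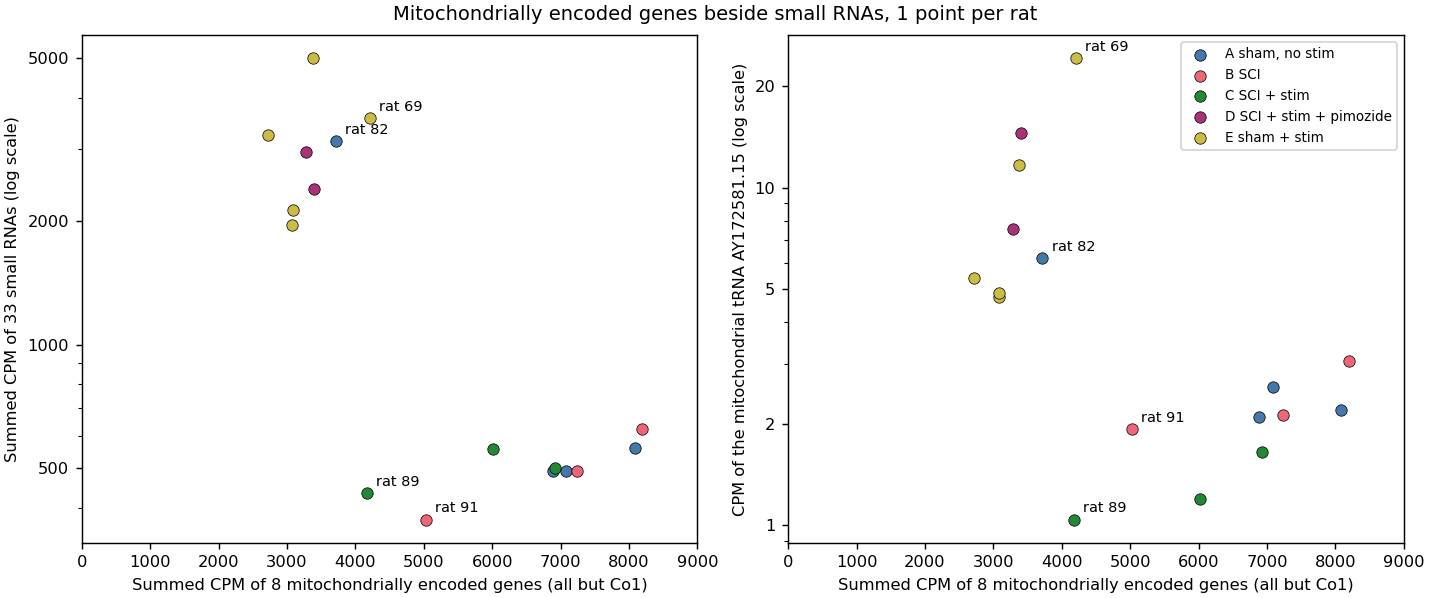
Summed level of 33 small RNAs (left, log axis) and level of the mitochondrial transfer RNA AY172581.15 (right, log axis) against the summed level of the 8 mitochondrially encoded genes other than Co1, all in CPM, with 1 point per rat coloured by group. Rat 82 of group A lies with groups D and E in both panels, and rats 89 and 91 lie to the left of their groups but low on the left panel's vertical axis, at 435 and 374 CPM.

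Markers of blood cells varied between libraries and groups. The 6 erythroid markers Hba-a1, Hbb, Alas2, Slc4a1, Ahsp and Hemgn summed to 154 to 796 CPM in group A, 203 to 298 CPM in B, 430 to 1249 CPM in C, 175 to 254 CPM in D and 184 to 459 CPM in E. Rat 82 was the highest of group A, at 796 CPM. The 6 granulocyte markers, Mpo, Elane, Ctsg, S100a8, S100a9 and Ngp, summed to 4.69 to 65.7 CPM in A, 15 to 19.6 CPM in B, 70.9 to 117 CPM in C, 19.3 to 27.3 CPM in D and 5.87 to 68.9 CPM in E. Group C was thus above groups B and D without overlap in both lists, and above group E in granulocyte markers. The study had flagged all these markers from the same rats as raised in ±st(SCI) and lowered in ±pim(st/SCI). The place of group C above B and D is therefore not independent evidence of a direction. The mitochondrially encoded genes were higher in C than in D, without overlap in all but Nd5, but overlapped between C and B, with a median log2(FC) of -0.24. Their part in the results was not tested.

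Among the 99 identifiers with a name, the protein-coding gene whose log2 level was most like the mean of the members over the 17 rats was Hnrnpa2b1, an RNA-binding protein of the nucleus, with a Pearson correlation of 0.69. LOC102555453 (0.42), Kel (0.39), Hbb-b1 (0.38) and Klf1 (0.34) followed. Inverse relations among the named identifiers were stronger. The correlation was -0.9 for Rps27a-ps1, listed as protein-coding, and was between -0.87 and -0.64 for the 28 small RNAs with a mean of at least 1 CPM. The named identifiers are those the study listed from these rats, and are no sample of all genes. Among genes tested with a mean of at least 1 CPM, the members and the transfer RNA set aside, the highest value was 0.92. It was reached by ENSRNOG00000000437 and ENSRNOG00000030700, which could not be matched to a name. Other genes of mitochondrial DNA could not be matched, so any among the genes ranked were not set aside. These correlations share the rats, their groups and their libraries, and are given as a description.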

How the data were processed

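RNA depleted of ribosomal RNA was sequenced single-end from 17 rats, 1 library per rat, without pooling of rats. The authors trimmed adapters, aligned with STAR and counted reads per Ensembl gene with its GeneCounts function, and deposited the whole-number counts without normalization. The submitters' processing notes give bcl2fastq 1.8.4, Trim Galore 0.4.1 and STAR 2.5.0a. The labels and the methods name different rat genome builds, and the strand column used is not stated, so no coordinates are given. GeneCounts leaves out reads that overlap more than 1 gene or align to more than 1 place, which bears on the overlapping gene pairs Nd4l with Nd4 and Atp8 with Atp6, and on any nuclear copies of mitochondrial DNA.

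Groups were taken from the letter in each title. The members and lists were chosen with earlier results of these data known. Names of the 10 genes came with their identifiers, and those of 99 other identifiers from the study's supplement. The lists of nuclear respiratory chain genes, their regulators, mitochondrial mass, neurons, glia, muscle, nerve and endothelium matched 0% of their symbols, so nothing is reported from them. Only the erythroid and granulocyte lists matched, with 6 of 6 each. No mitochondrial sequence was analysed here.

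Counts were fitted with edgeR 4.0.16 (glmQLFit, glmQLFTest; limma 3.58.1, R 4.3.3) over all 17 rats with a coefficient per group, after filterByExpr (15460 genes) and TMM scaling, and Benjamini-Hochberg adjustment was applied over all genes tested. Calls rest on an FDR under 0.05 and, as a stricter rule, on an absolute log2(FC) above 1 as well. The SE is the absolute log2(FC) divided by the square root of F. DESeq2 1.42.0 was an alternative, as were edgeR's exact test on pairs of groups alone (with total count scaling and all genes with a count), and, changed singly, other scalings, no filter, fits of the contrast's rats alone, a term for runs of rat numbers, and leaving out each rat. Likeness is the Pearson correlation of log2(CPM + 0.1) with the members' mean; the 5 named nuclear genes with the highest value and a mean of at least 1 CPM are given. Named are all 10 members, the matched transfer RNA and these 5. Between rats of a group the chi-square per degree of freedom was 4.39 to 40.5, where counting alone gives about 1, so no pair of libraries within a group appeared to be a duplicate. Summaries and figures were made in Python 3.11.15 with pandas 2.3.3 and matplotlib 3.10.9.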

Additional observations from a re-analysis of the deposited data

Results flagged for a closer look

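Groups A and E were large enough for a check of single rats far from their group, and 24 sets of values were checked, of which chance alone would mark about 1 in 20. In 2 of them the gap between rat 82 of group A and the nearest of the other 3 rats, as a part of the group's range, passed Dixon's 95% critical value. Its Atp6, at 1552 CPM, was the lowest of the group with a ratio of 0.85. Its mitochondrial transfer RNA AY172581.15, at 6.2 CPM, was the highest of the group with a ratio of 0.88. Both values come from the same library.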

How the results depend on the processing

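The median log2(FC) of the 9 genes tested kept its direction in ±st(0), ±SCI(st), ±st/SCI(0), ±st(SCI), ±pim(st/SCI) and the interaction under every alternative run. With 1 rat left out it ranged in ±st(0) from -1.14 to -0.81, in ±SCI(st) from 0.63 to 0.91 and in ±st/SCI(0) from -0.32 to -0.09. The range in ±pim(st/SCI) was -0.89 to -0.61, in the interaction 0.45 to 0.82, in ±st(SCI) -0.4 to -0.07, and around 0 in ±SCI(0), from -0.14 to 0.23. With a term for the 2 runs of rat numbers it was -1.2 in ±pim(st/SCI), a move beyond the SD of 0.31 between rats of a group. That term rested on rat 70 of group A and rat 69 of group E. In ±st(0), where the quasi-likelihood test called 0 genes, DESeq2 called 6 and the exact test, with its own scaling, rats and genes, 7, and with an absolute log2(FC) above 1 as well both called 4. Leaving out 1 rat gave 0 to 7 genes, and 0 to 6 with that limit, and each of the higher numbers came without rat 82. In ±pim(st/SCI), DESeq2 and the exact test called 1 gene each, and the exact test 1 gene with the limit too, against 0. In ±SCI(st) leaving out 1 rat gave 4 to 7 genes, and 1 to 3 with the limit, against 6 and 2. At an unadjusted p under 0.05, leaving out 1 rat gave 7 to 9 genes in ±st(0), 6 to 8 in ±SCI(st), 1 to 7 in the interaction, 4 to 8 in ±pim(st/SCI), and at most 1 in ±st(SCI) and ±st/SCI(0). The cause of these shifts was not tested. The median share of counts in group B was 2.37% without rat 94 and up to 2.63% without another rat. Of the log2(FC) values of single genes under the alternatives, 1387 moved by less than the spread between rats and 8 moved further, all 8 in ±pim(st/SCI). Where 1 of the 2 rats of group D was left out, the other was assumed to vary like the rest. Rats numbered 82 to 95 alone gave no value for ±pim(st/SCI), and counts of nuclear respiratory chain genes were not run. No paired analysis was possible because the groups shared no rat numbers. Nd4, with 11 counts in all, gave no value in any contrast.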
